A study of Mus musculus with 37 samples.

Results

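The Obox genes encode oocyte-specific homeobox proteins, and 7 of them were followed here by gene symbol through 4 RNA-seq tables that together hold 29294 gene symbols. Obox1, Obox2, Obox5 and Obox7 were taken as the 4 maternal members, whose transcripts are stored by the growing oocyte. Obox3 and Obox6 were taken as the 2 zygotic members, which are transcribed by the embryo, and Obox8 was left in neither class. A further 28 rows of the tables carry names of related genes (Obox3-ps, Obox4-ps and Obox6-ps1, annotated as pseudogenes by their names) and were counted apart from the 7 members.

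The mice were C57BL/6 and their ages were not given in the sources used here. In the ZH line a floxed Hira allele, and in the CabZ line a floxed Cabin1 allele, was deleted by Zp3-Cre, which is active in growing oocytes. Hira and Cabin1 are subunits of the chaperone complex that deposits histone H3.3 independently of replication. The heterozygous controls (ZH Het, CabZ Het) carried the same Cre with 1 floxed allele, so neither line has a group without Cre here. Germinal vesicle (GV) oocytes of both lines and 2-cell embryos of the CabZ line were sequenced, with 4 libraries in each of the 6 groups. Whether the CabZ 2-cell embryos came from fertilised or activated eggs is not stated in the sources used here. A further table held 2-cell parthenogenetic embryos from wild-type GV oocytes injected with GFP RNA (4 libraries) or with Zscan4d RNA (3 libraries, labelled Zscan4 overexpression or OE). ATAC-seq peak lists covered CabZ GV oocytes, with 3 libraries for each genotype. The labels describe single cells and the methods describe pools, and neither says that libraries came from separate animals, so p-values measure the spread between these libraries, which may be technical. In such bulk libraries fewer cells of a type and less RNA per cell cannot be told apart.

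Homeobox proteins bind DNA through a homeodomain whose last helix lies in the major groove. Obox proteins carry a lysine at homeodomain position 50, the residue that sets the preferred DNA core in OTX and Bicoid proteins. Maternal and embryonic Obox proteins are known as regulators of zygotic genome activation, the first transcription of the embryo's own genes, which in the mouse peaks at the 2-cell stage. Maternal transcripts are normally cleared over the same interval.

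The family lies on chromosome 7. In the mm10 coordinates of the tables Obox8 spans chr7:14331436-14333557 on the minus strand and Obox7 spans chr7:14659496-14665996 on the plus strand. Obox2 (chr7:15388721-15398545) and Obox5 (chr7:15750131-15759800) are on the plus strand, and Obox6 (chr7:15833241-15839678) is on the minus strand. The annotated span of Obox1 (chr7:15388948-15556866, plus strand) covers 97.7% of the Obox2 span, and it overlaps the Obox3 span (chr7:15479825-15639902, minus strand) by 77042 bases.

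The coding bases of the DNA-recognition helix are shown because they give both what the members share and how far apart they are. Each line has 51 bases of the GENCODE vM21 transcript, 5′ to 3′, with the codon for homeodomain residue 50 in capitals.

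Obox1: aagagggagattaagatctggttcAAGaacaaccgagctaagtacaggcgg
Obox2: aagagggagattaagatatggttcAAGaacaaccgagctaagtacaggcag
Obox5: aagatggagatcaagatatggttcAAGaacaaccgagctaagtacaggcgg
Obox7: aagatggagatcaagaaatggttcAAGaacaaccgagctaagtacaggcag
Obox3: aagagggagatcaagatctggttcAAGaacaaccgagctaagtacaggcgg
Obox6: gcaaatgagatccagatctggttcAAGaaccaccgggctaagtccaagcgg
Obox8: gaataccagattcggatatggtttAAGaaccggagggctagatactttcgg

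The lysine codon AAG is present in all 7 members. Obox1 and Obox3 differ at 1 of the 51 bases and Obox1 and Obox2 at 2, whereas Obox6 differs from the maternal members and Obox3 at 10 to 13. Obox8 is the most distant member, with 17 to 22 differences from each of the others. By this stretch the zygotic Obox3 is nearer to the maternal members than to the zygotic Obox6.

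This likeness bears on the counting. Of all 150-base windows of the Obox1 transcripts, the read length of the study, 34.1% occur exactly in Obox2, and 38.2% of Obox2 windows occur in Obox1. For Obox3 the share found in another gene is 4.54%, all in Obox3-ps3, and for Obox5, Obox6, Obox7 and Obox8 it is 0. Of shorter windows of 50 bases, 13.0% of those of Obox5 occur in Obox7 and 17.1% of those of Obox7 occur in Obox5. Reads recovered from the deposited values were whole, within 0.05 of a read, for Obox6 in 29 of 29 libraries and for Obox8 in 27 of 27, but for Obox1 in only 5 and for Obox2 in only 3 of 31. Obox3 was whole in 2, Obox5 in 5 and Obox7 in 7 of the 31 libraries. Values of Obox1 and Obox2 are therefore uncertain as separate genes, and counts of Obox3, Obox5 and Obox7 were also fractional in most libraries.

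Promoters of 5 members were matched in RefSeq (GRCm38.p6, the same build as mm10), and none was matched for Obox6 and Obox8. The windows are shown because the maternal Obox1, Obox5 and Obox7 and the zygotic Obox3 have a similar stretch at or before their starts. Each line is on the strand of its gene, 5′ to 3′, with the letters TATATAA in capitals. The coordinates are chr7:15547159-15547268 for Obox1, chr7:15750260-15750369 for Obox5, chr7:14659624-14659733 for Obox7 and chr7:15639777-15639886 (minus strand) for Obox3.

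Obox1: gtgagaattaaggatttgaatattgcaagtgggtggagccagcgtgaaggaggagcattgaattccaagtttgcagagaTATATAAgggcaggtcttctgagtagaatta
Obox5: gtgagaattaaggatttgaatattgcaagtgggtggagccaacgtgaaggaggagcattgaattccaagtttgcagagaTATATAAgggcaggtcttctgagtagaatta
Obox7: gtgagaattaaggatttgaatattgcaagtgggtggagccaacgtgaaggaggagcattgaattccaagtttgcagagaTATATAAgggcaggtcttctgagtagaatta
Obox3: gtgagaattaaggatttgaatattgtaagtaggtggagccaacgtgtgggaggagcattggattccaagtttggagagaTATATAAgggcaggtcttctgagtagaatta

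The first 25 bases of these windows occur in the promoters of all 5 matched members and in no other of 32851 RefSeq promoters of the same length. A 44-base run that contains them occurs in the 4 maternal promoters only. Without gaps the Obox5 and Obox7 promoters were identical at 98.3% of compared bases, Obox1 and Obox5 at 96.8% and Obox1 and Obox7 at 96.2%. Obox3 was identical to Obox5 at 83.7%, to Obox1 at 79.5% and to Obox7 at 72.6%. Obox2 was identical to the other 4 at 32.1 to 34.2%, but the shifts compared did not reach the register of the shared stretch. These values are therefore no measure of likeness. The stretch begins at -1 from the annotated start in Obox2, against -98 in Obox1. Its 51 bases in the Obox2 window are the same as the first 51 of the Obox1 line above. TATATAA begins 31 bases before the annotated start of Obox5, 30 before that of Obox3, 19 before that of Obox1 and 5 before that of Obox7. It is not in the promoter window of Obox2, but that window ends 49 bases after the annotated start. The place that TATATAA holds in the stretch of the other 4 lies beyond this end. Obox2 could therefore not be judged for it. These letters were searched after the sequences had been seen. On both strands TATATAA is held by 3.24% of all promoters. GGATTA, a core bound by OTX-type homeodomains, was found in Obox3 alone, 168 bases before the start, against 7.06% of all promoters, and TAATTG, a core bound by NOBOX, was found in none of the 5, against 8.0%.

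Across libraries, the reads assigned to genes ranged from 5819315 to 21869858, and were fewer in CabZ KO 2-cell libraries (5819315 to 6330242) than in CabZ Het (7947415 to 8239523). Levels are given as FPKM, reads scaled to library size and divided by the gene span in kilobases, and comparisons between genes use CPM, reads scaled to library size, per kilobase of exon. Cabin1 was lower in CabZ KO libraries at both stages (exact permutation test, n = 4 against 4, two-sided, p = 0.0286, the smallest this design allows). Hira had 0 to 14 reads per ZH library and did not separate the genotypes (exact permutation test, n = 4 against 4, p = 0.4). The floxed allele removes only part of the gene, so so few whole-gene reads cannot test the deletion. Zscan4d was 117 ± 34.4 FPKM (SD, n = 4) in GFP embryos and 79.4 ± 7.94 FPKM (SD, n = 3) in those labelled Zscan4 OE. The injected gene was thus not higher in these 2-cell libraries. The paper reported more Zscan4 after injection by qRT-PCR, immunofluorescence and western blot, against an uninjected group. These measures are unlike the 2-cell RNA-seq values, and results from those embryos are given by label only. All 12 granulosa and cumulus markers sought were absent or summed to at most 3.49 FPKM in any library, while the 12 oocyte markers summed to 1262 FPKM or more in each.

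In GV oocytes the maternal members took a sizeable part of all reads, and the zygotic members were near zero. The 7 members took 2.26% ± 0.137 of all reads on genes in CabZ Het oocytes and 1.54% ± 0.265 in ZH Het oocytes (SD, n = 4 each). Per kilobase of exon, Obox2 led in every GV group, followed by Obox1. In CabZ Het oocytes the mean levels were 7199 ± 463 for Obox2, 3125 ± 180 for Obox1, 1849 ± 132 for Obox5 and 528 ± 35.8 for Obox7 (CPM per exonic kilobase, SD, n = 4). No neighbours in this order overlapped, in either control group. Obox6, Obox3 and Obox8 were each under 1 on this scale in the controls of both lines, and their order was not separated. ZH KO was the exception among the GV groups, since Obox7 (674 ± 261) and Obox5 (666 ± 202) overlapped there (SD, n = 4).

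**Figure D1:**
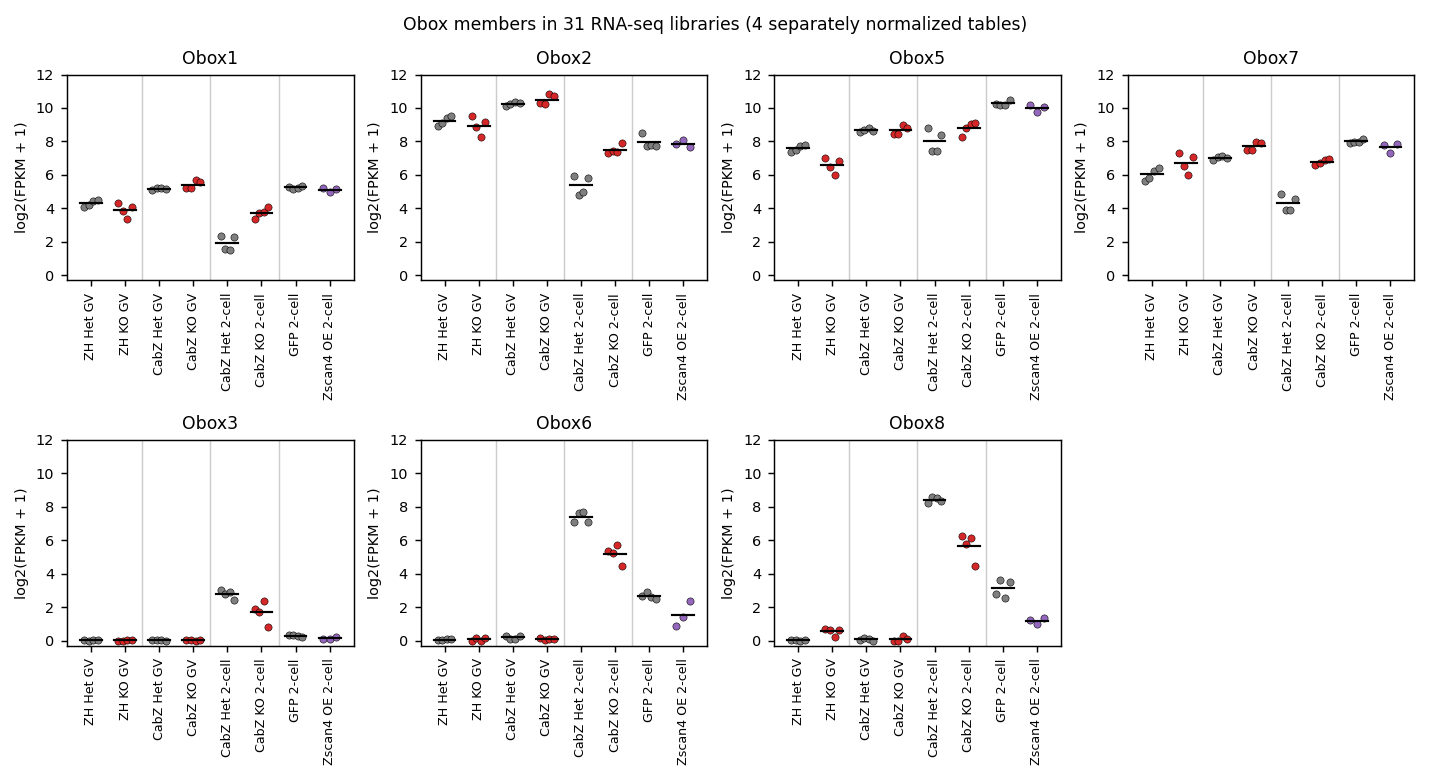
Level (log2(FPKM + 1)) of the 7 Obox members, in 1 panel each, in the 31 RNA-seq libraries, with 1 point for each library and a line at each group mean; grey points are controls, red points KO and purple points Zscan4 OE. In GV oocytes Obox1, Obox2, Obox5 and Obox7 stood far above Obox3, Obox6 and Obox8, and in CabZ 2-cell embryos the KO libraries were higher for Obox1, Obox2 and Obox7 and lower for Obox3, Obox6 and Obox8.

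In ZH KO oocytes Obox5 was lower and the other maternal members were not called. Obox5 is a maternal member of the cluster, and its level was 164, 180, 211 and 222 FPKM in the 4 ZH Het libraries and 128, 86.9, 64.0 and 114 FPKM in the 4 ZH KO libraries. Every KO library was below every Het library. The log2 difference was -1.02 (SE 0.21), with an adjusted p of 0.0036 by limma. A gene was called where its adjusted p was under 0.05 and its fold change above 2, both on the log2(FPKM + 1) scale, so that 1 of the 4 members tested was called. For comparison, 17.7% of the 5792 genes tested in these oocytes were called and 7.20% were called lower. Obox5 sat at the fold threshold: it was not called in units of CPM (log2 difference -0.87, adjusted p = 0.0117 by limma), nor without Het replicate 3 or 4 or KO replicate 2 or 3, where the log2 difference was -0.97, -0.95, -0.97 and -0.83.

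Obox7, the shortest maternal gene span, moved the other way in mean. It had 49.7, 55.8, 75.6 and 85.9 FPKM in ZH Het and 157, 93.4, 62.3 and 131 FPKM in ZH KO. KO replicate 3 lay among the Het libraries and the other 3 lay above them. On the log2 scale the difference was 0.67 (SE 0.29, adjusted p = 0.0731 by limma). In CPM it was 0.83 (adjusted p = 0.0409 by limma) and after median scaling 0.53 (adjusted p = 0.128 by limma), both under the fold threshold.

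Obox1 and Obox2, the pair with shared reads, overlapped between the genotypes. Obox1 was 15.6 to 21.4 FPKM in ZH Het and 9.34 to 19.1 FPKM in ZH KO, a log2 difference of -0.39 (95% interval -0.84 to 0.06, adjusted p = 0.131 by limma). Obox2 was 481 to 743 FPKM in ZH Het and 306 to 721 FPKM in ZH KO (-0.30, 95% interval -0.86 to 0.27, adjusted p = 0.347 by limma). KO replicate 3 was the lowest ZH KO library for all 4 maternal members, and KO replicate 1 was the highest.

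Members under the filter of a mean of 1 FPKM were compared in FPKM and are given as approximate reads. Obox8 had 1, 1, 0 and 2 reads in the ZH Het libraries and 20, 19, 5 and 16 in ZH KO. The groups did not overlap (exact permutation test, n = 4 against 4, two-sided, p = 0.0286, the smallest possible), and among 19261 genes under the filter 31.5% did not overlap either. The ZH KO libraries held 8996897 to 10869869 reads each, and a count of 0 allows up to 3 reads. Obox3 had 7 to 32 reads in Het and 11 to 17 in KO (exact permutation p = 0.257), and Obox6 had 1 to 8 and 0 to 10 (exact permutation p = 0.771).

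In CabZ KO oocytes Obox7 was higher and no member was called. Obox7 had 119, 133, 140 and 129 FPKM in CabZ Het and 181, 176, 246 and 244 FPKM in CabZ KO. Every KO library exceeded every Het library. This was a log2 difference of 0.68 (SE 0.14, adjusted p = 0.0095 by limma), a fold change of 1.60, under the fold threshold of 2. At any fold, 8.20% of the 6339 genes tested had an adjusted p under 0.05 and were higher in KO, and 2.90% were called at the fold threshold.

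Obox5, lower in ZH KO, was close to equal in the CabZ line. Its mean was 408 ± 29.2 FPKM in CabZ Het and 409 ± 76.3 FPKM in CabZ KO (SD, n = 4 each), a log2 difference of -0.01 (95% interval -0.32 to 0.30). Whether the lines differ in this was not tested, since their tables were normalized separately. Obox2 had 1108, 1190, 1292 and 1235 FPKM in CabZ Het and 1240.5, 1217, 1793 and 1655 FPKM in CabZ KO, and Obox1 had 32.7 to 37.0 and 35.6 to 49.9 FPKM. Both overlapped between genotypes, with log2 differences of 0.27 (adjusted p = 0.261) and 0.23 (adjusted p = 0.292) by limma. Replicates 3 and 4 of CabZ KO were the higher pair for Obox2 and Obox7.

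The zygotic members stayed at the floor in CabZ oocytes. Obox6 had 17, 6, 6 and 14 reads in Het and 6, 2, 4 and 3 in KO, which overlapped at 6 reads (exact permutation test, n = 4 against 4, p = 0.0857). Obox3 had 6 to 32 and 5 to 18 reads (exact permutation p = 0.457), and Obox8 had 0 to 3 and 0 to 4 reads (exact permutation p = 1). None of the 3 separated the groups, where 16.0% of the 12683 genes under the filter did. The activation of Obox3, Obox6 or Obox8 in CabZ KO oocytes was therefore not detectable at this depth.

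**Figure D2:**
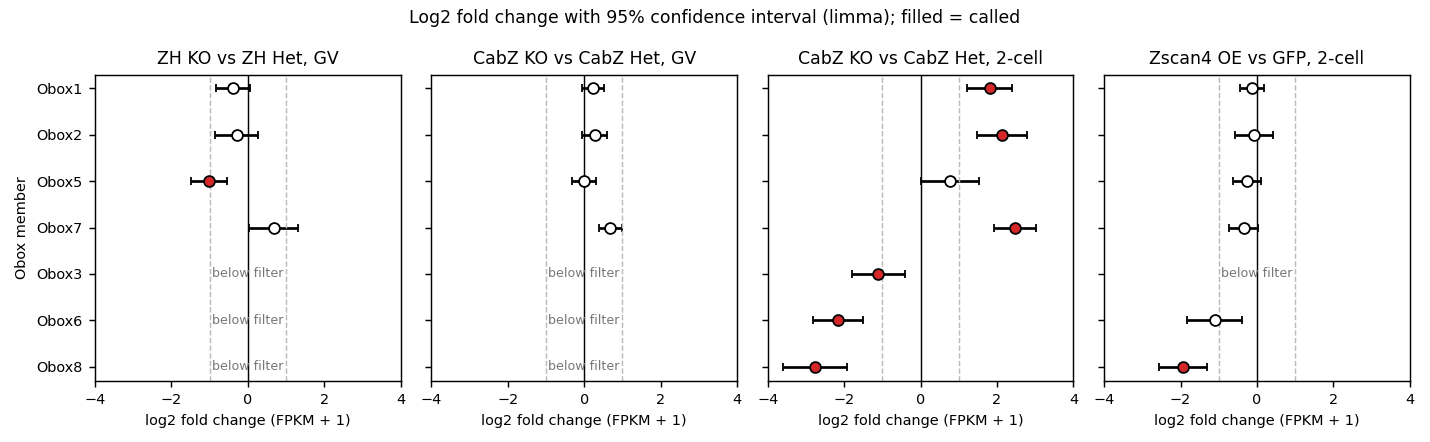
Log2 difference (log2(FPKM + 1), treated minus control) of each tested member in the 4 comparisons, with the limma 95% interval as a bar, filled where called, and dashed lines at the fold threshold. In CabZ 2-cell embryos the maternal Obox1, Obox2 and Obox7 lay to the right of 0 and Obox3, Obox6 and Obox8 to the left, while the GV differences were at most 1.02 in size.

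The proportions among the maternal members did not overlap between genotypes in either line for Obox7 against Obox5. The ratio of Obox7 to Obox5, both per exonic kilobase, was 0.271, 0.278, 0.321 and 0.347 in ZH Het and 1.10, 0.963, 0.873 and 1.03 in ZH KO. In the CabZ line it was 0.281, 0.293, 0.280 and 0.290 in Het and 0.464, 0.463, 0.441 and 0.491 in KO. In both lines every KO library was above every Het library. Obox7 to Obox2 was 0.0736 ± 0.00511 in ZH Het and 0.145 ± 0.00849 in ZH KO, and 0.0734 ± 0.00197 and 0.0978 ± 0.00318 in CabZ (SD, n = 4 each), again with no overlap. A ratio is unaffected by how a library was scaled, and it shows unequal change of the pair without showing which of them moved. Obox5 and Obox7 share 50-base windows and had fractional counts in most libraries, so how reads were assigned between them is uncertain.

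The share of Obox5 in the family level was 13.1 to 14.3% in ZH Het and 8.04 to 9.07% in ZH KO, and 14.2 to 14.9% against 11.9 to 12.3% in CabZ. For Obox7 the share was 3.83 to 4.54% against 7.92 to 9.09% in ZH and 4.10 to 4.23% against 5.43 to 5.82% in CabZ. Obox2 kept a share of 55.2 to 59.7% over the 16 GV libraries of both lines. The ratio of Obox2 to Obox1 was 2.19 ± 0.112 in ZH Het, 2.39 ± 0.154 in ZH KO, 2.31 ± 0.0946 in CabZ Het and 2.36 ± 0.0640 in CabZ KO (SD, n = 4 each). These proportions are descriptions and were given no p.

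**Figure D3:**
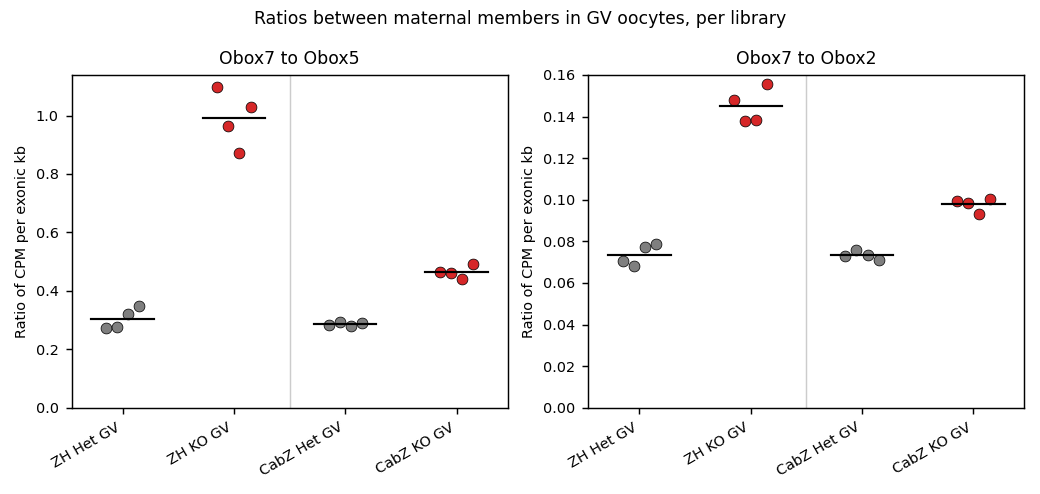
Ratios of Obox7 to Obox5 (left) and of Obox7 to Obox2 (right) in GV oocytes, from CPM per exonic kilobase, with 1 point for each library and a line at each group mean. The Obox7 to Obox5 ratio lay between 0.271 and 0.347 in ZH Het and between 0.873 and 1.10 in ZH KO, and in CabZ the Het points also lay below the KO points in both panels.

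ATAC-seq peaks, which mark accessible DNA, were nearly absent from the Obox starts in CabZ GV oocytes. The starts used here were those of the gene spans listed above, not the RefSeq starts used for the promoters. For Obox1 this is chr7:15388948, so the peak count does not cover its RefSeq promoter at chr7:15547159-15547268. Within 500 bases of a span start, the 6 libraries held 1 peak summit at 1 of the 7 members. It lay 171 bases before the start of Obox5 in Het replicate C, with a fold enrichment of 4.69 and a −log10 q-value of 5.10. At 968 bases before the start of Obox7 the same library held a further summit, with a fold enrichment of 3.81. Het replicate C had 111327 peaks, the most of any library, and 35.5% of the genes tested had a summit at their start there, against 10.3 and 19.9% in the other Het libraries and 5.30, 6.94 and 15.2% in the KO libraries. With peak numbers of 43399 to 111327 in Het and 19160 to 46070 in KO, and with reads that align to several places excluded by the authors, the peak lists do not separate the genotypes at these starts.

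At the 2-cell stage the family split in CabZ KO embryos. The maternal Obox1, Obox2 and Obox7 were higher, by 3.49, 4.39 and 5.57-fold on the log2(FPKM + 1) scale, and Obox3, Obox6 and Obox8 were lower, by 2.16, 4.49 and 6.84-fold. In all, 6 of the 7 members were called, 3 in each direction, and the groups did not overlap for the same 6. Calls were frequent in these embryos: of 7798 genes tested 37.4% were called, 16.9% higher and 20.4% lower, and 51.0% did not overlap between the groups. The median log2 difference of all tested genes was -0.11, and the 6 called members kept their signs in CPM, per exonic kilobase and after median scaling; on the values as deposited Obox2, Obox6, Obox7 and Obox8 kept theirs, and Obox1 and Obox3 were not tested.

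Obox2, the leading maternal member of the oocyte, had 60.3, 26.9, 30.2 and 54.2 FPKM in the CabZ Het libraries and 161, 170, 164 and 238 FPKM in the KO libraries. The highest Het library was below the lowest KO library by more than 2-fold. The log2 difference was 2.13 (SE 0.29, adjusted p = 0.00042 by limma). Obox1, which shares its reads, had 4.14, 1.96, 1.88 and 3.8 FPKM in Het and 9.11, 12.2, 12.7 and 16.0 FPKM in KO (1.80, SE 0.26, adjusted p = 0.00055 by limma).

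Obox7 had the largest increase of the 7 members. Its level was 27.5, 14.2, 14.1 and 22.9 FPKM in Het and 97.6, 104, 116 and 123 FPKM in KO, a log2 difference of 2.48 (SE 0.24, adjusted p = 0.00018 by limma). The KO libraries were close together, and Het replicates 1 and 4 were above replicates 2 and 3, as they were for Obox1 and Obox2.

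Obox5, the maternal member with the highest mean level per exonic kilobase at this stage, was not called. It had 449, 174, 174 and 330 FPKM in Het and 309, 447, 517 and 538 FPKM in KO. The groups overlapped, because Het replicate 1 exceeded KO replicates 1 and 2 and Het replicate 4 exceeded KO replicate 1. On the log2 scale the difference was 0.77 (SE 0.34, adjusted p = 0.080 by limma), and without Het replicate 1 it was 1.04 and called (adjusted p = 0.0192). It was also called after scaling each library to its median (1.01, adjusted p = 0.0452) and on the values as deposited (1.36, adjusted p = 0.0116).

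Obox6, a zygotic member, had 137, 196, 207 and 133 FPKM in CabZ Het and 40.2, 37.1, 52.5 and 21.1 FPKM in CabZ KO. The lowest Het library was above the highest KO library. This was a log2 difference of -2.17 (SE 0.29, adjusted p = 0.00040 by limma). Obox8, the most divergent homeodomain of the family, had 298, 386, 374 and 327 FPKM in Het and 75.6, 54.1, 70.1 and 20.7 FPKM in KO (-2.77, SE 0.37, adjusted p = 0.00040 by limma). It fell furthest of the 7. On the values as deposited, before FPKM were restored, the log2 differences were -1.43 for Obox6 and -2.12 for Obox8, and both were still called.

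Obox3, the zygotic member with a homeodomain like that of Obox1, had 7.05, 5.96, 6.58 and 4.44 FPKM in Het and 2.65, 2.24, 4.08 and 0.777 FPKM in KO. The gap between the groups was small, since Het replicate 4 and KO replicate 3 were neighbours. The log2 difference was -1.11 (SE 0.31, adjusted p = 0.0125 by limma), and it was under the fold threshold without KO replicate 4 (-0.82, adjusted p = 0.0163) or after median scaling (-0.87, adjusted p = 0.0275). In CPM it was -1.50 (adjusted p = 0.0164 by limma) and with a pseudocount of 0.1 it was -1.45 (adjusted p = 0.0252 by limma), both called.

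Libraries of the same genotype also differed from each other. Het replicates 1 and 4 had more of each maternal member and less Obox6 and Obox8 than Het replicates 2 and 3, whereas Obox3 was highest in Het replicate 1 and lowest in Het replicate 4. KO replicate 4 had the highest Obox1, Obox2, Obox5 and Obox7 and the lowest Obox3, Obox6 and Obox8 of the KO libraries. The reads from Obox3, Obox6 and Obox8 made up 31.3 to 57.1% of all family reads in the Het libraries and 2.68 to 11.1% in the KO libraries. As a share of all reads on genes, the maternal members took 0.377% ± 0.169 in Het and 0.900% ± 0.179 in KO, and the other 3 took 0.278% ± 0.0414 and 0.0750% ± 0.0347 (SD, n = 4 each).

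**Figure D4:**
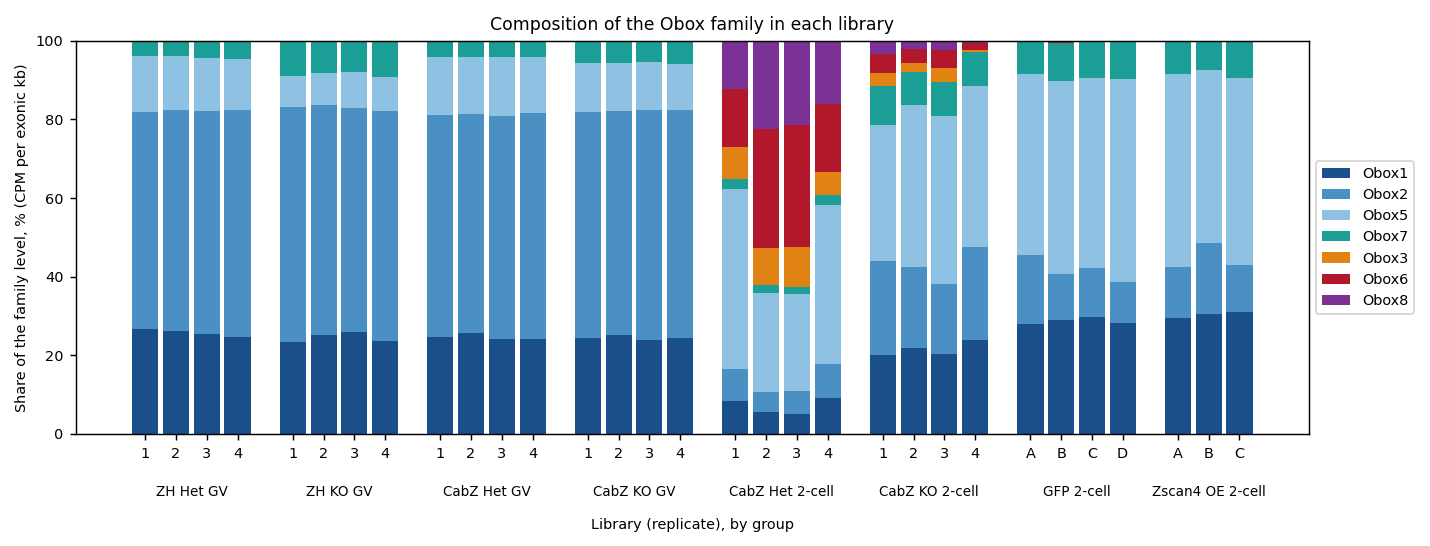
Share of each member in the summed Obox level (%, CPM per exonic kilobase) in each of the 31 libraries, as stacked bars grouped by condition. GV bars were made up of Obox2, Obox1, Obox5 and Obox7, and in CabZ 2-cell embryos Obox3, Obox6 and Obox8 filled a larger part of each Het bar than of each KO bar.

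Per kilobase of exon, the order in CabZ Het 2-cell embryos was Obox5 (1275 ± 606), Obox6 (806 ± 186), Obox8 (630 ± 75.1), Obox3 (301 ± 56.9), Obox1 (260 ± 105), Obox2 (256 ± 100) and Obox7 (79.8 ± 27.1) (SD, n = 4). Of these neighbours only Obox8 and Obox3, and Obox2 and Obox7, did not overlap. In CabZ KO embryos the maternal members came first: Obox5 (2050 ± 469), Obox1 (1106 ± 250.5), Obox2 (1094 ± 218) and Obox7 (447 ± 47), and then Obox6 (181 ± 61.8), Obox3 (122 ± 68.1) and Obox8 (100 ± 45), where Obox7 and Obox6 did not overlap and the last 3 were not separated (SD, n = 4).

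The GV and 2-cell tables of the CabZ line were normalized separately, so their levels are set side by side without a test. Per kilobase of exon Obox2 was 7199 in Het GV oocytes and 256 in Het 2-cell embryos, 28.1-fold less, and 8811 and 1094 in KO, 8.05-fold less. Obox1 was 12-fold less at the 2-cell stage in Het and 3.37-fold less in KO. Obox7 was 6.62-fold less in Het and 1.92-fold less in KO. Obox5 behaved apart from them, with 1849 in GV and 1275 in 2-cell libraries of Het and 1852 and 2050 in KO. For Obox1, Obox2 and Obox7 the 2-cell level was 3.56 to 15.1% of the oocyte level in Het and 12.4 to 52.0% in KO. The ratio of Obox2 to Obox1 was 0.991 ± 0.0684 in Het and 1.00 ± 0.137 in KO 2-cell embryos (SD, n = 4), against 2.31 and 2.36 in the oocytes of the same line.

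Other genes of the 2 programmes gave a measure of the background for the maternal members. Of 12 oocyte markers 5 were called higher in CabZ KO 2-cell embryos and none lower (Zp2, Gdf9, Bmp15, Ooep and Mos), and the list's median log2 difference was 0.94 against -0.11 for all genes. Zp2, a zona pellucida protein, was 2.72 ± 0.758 in Het and 10.6 ± 4.33 FPKM in KO, and Mos, the kinase that holds eggs at metaphase, was 1.65 ± 2.07 and 17.3 ± 9.08 FPKM (SD, n = 4 each). The summed level of the 12 was 1681 to 2055 FPKM in Het and 1262 to 2990 FPKM in KO, and its part in the Obox differences was not tested. Of 10 oocyte transcription factors tested, 4 were called higher (Tbpl2, Gsc, Zfp57 and Ybx2) and 2 lower (Foxr1 and Crxos).

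Among 37 tested regulators and early genes of zygotic genome activation, 6 were called higher and 8 lower, with a median log2 difference of 0.03. Dppa4, a chromatin protein that acts upstream of the 2-cell programme, was 40.9 ± 8.08 in Het and 8.80 ± 3.60 FPKM in KO (log2 difference -2.17), while Duxf3, a homeobox activator of 2-cell genes, was 0.230 ± 0.376 and 2.36 ± 1.85 FPKM (1.32) (SD, n = 4 each). Duxf3 was under 1 FPKM in Het and passed the filter through KO, which favoured its call. Of the 10 markers of 2-cell embryos, 2 were higher and 1 lower. Among 30 other homeobox genes tested, 10 were called higher and 1 lower (Crxos, 42.2 ± 7.95 against 7.84 ± 2.74 FPKM; SD, n = 4 each). Duxf3 was among the 10, and the filter could have favoured this count and that of the activation genes called higher.

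The related rows split along the same names. Of 8 Obox3-ps rows tested, 6 were called lower and none higher in CabZ KO embryos, with a median log2 difference of -1.91. Obox3-ps5 had the highest mean of them, 893 ± 234 FPKM in Het and 293 ± 168 FPKM in KO (SD, n = 4 each). Obox3-ps7 (-0.01) and Obox3-ps8 (0.56) were not called. Of 9 Obox4-ps rows tested, 8 were called higher and 1, Obox4-ps35, was called lower, with a median of 1.80. Of the rows called higher, all but Obox4-ps29 had a Het mean under 1 FPKM and passed the filter through KO. Since only 9 of 16 Obox4-ps rows were tested, the filter favoured this count and median. Obox6-ps1 was called lower (-1.41, adjusted p = 0.00043 by limma). In oocytes none of the 2 rows tested in ZH or the 4 tested in CabZ was called. Obox3-ps rows share sequence with Obox3, so their reads are not fully separate.

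**Figure D5:**
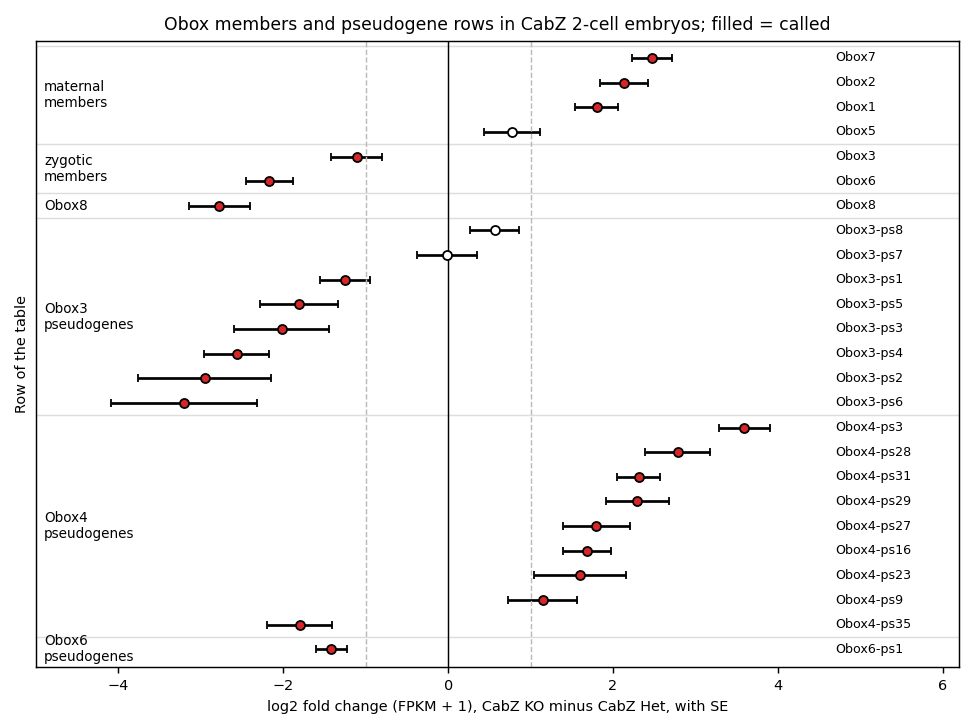
Log2 difference (log2(FPKM + 1), CabZ KO minus CabZ Het 2-cell embryos) of the 7 members and the related rows that passed the filter, with 1 point for each row, the SE as a bar and filled points for called rows. Most Obox3-ps rows and Obox6-ps1 lay below 0 and 8 of 9 Obox4-ps rows lay above it, most of these being under 1 FPKM in Het.

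In 2-cell embryos injected with RNA, maternal members made up nearly all family reads, and Obox8 was lower in those labelled Zscan4 OE. The family took 3.37% ± 0.270 of reads on genes in GFP embryos (SD, n = 4) and 2.86% ± 0.306 in Zscan4 OE embryos (SD, n = 3). Per kilobase of exon Obox5 led in both groups, at 8393 ± 833 and 6914 ± 1066, followed by Obox1, Obox2 and Obox7 with no overlap between neighbours (SD, n = 4 and 3). Obox3, Obox6 and Obox8 gave 0.312 to 0.516% of the family reads in GFP embryos, far under the 31.3 to 57.1% of the CabZ Het embryos in a separate table. The GFP embryos were parthenogenetic and came from injected wild-type oocytes, and the origin of the CabZ embryos is not stated. This gap was not tested.

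Obox8 had 6.03, 11.1, 4.88 and 10.6 FPKM in GFP embryos and 1.39, 0.956 and 1.52 FPKM in Zscan4 OE embryos. The groups did not overlap, as was so for 781 of the 4293 genes tested, in either direction. On the log2 scale the difference was -1.94 (SE 0.27, adjusted p = 0.0154 by limma), and Obox8 was the only member called of 6 tested, where 1.44% of the 4293 genes tested were called and 1.42% were called lower. The call was lost without OE replicate B (adjusted p = 0.0708) and without the filter on low values (adjusted p = 0.109).

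Obox6 had 5.23, 6.51, 5.03 and 4.7 FPKM in GFP and 0.800, 1.71 and 4.22 FPKM in OE embryos. OE replicate C was just under the lowest GFP library and the other 2 were well below. This was a log2 difference of -1.11 (SE 0.32, adjusted p = 0.123 by limma), and without replicate C it was -1.52 and called (adjusted p = 0.0164). Obox3, under the filter, had 0.286, 0.267, 0.236 and 0.146 FPKM in GFP and 0.0826, 0.0581 and 0.140 FPKM in OE, with no overlap (exact permutation test, n = 4 against 3, two-sided, p = 0.0571, the smallest this design allows). Among the 11558 genes under the filter 10.9% did not overlap. Obox3 had 348 to 1528 reads in GFP and 192 to 327 in OE, and its FPKM is divided by a span of 160078 bases. Per exonic kilobase, an alternative chosen after seeing the data, all 7 members were tested and only Obox8 was called.

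The maternal members showed smaller differences in the injected embryos. Obox7 had 242, 253, 244 and 287 FPKM in GFP and 219, 160 and 230 FPKM in OE, without overlap (-0.35, SE 0.17, adjusted p = 0.290 by limma). Of the 4293 genes tested, 781 did not overlap either. Obox2 had 356, 212, 223 and 215 FPKM in GFP and 228, 267 and 206 FPKM in OE (-0.08, 95% interval -0.57 to 0.41). Obox5 had 1221, 1164, 1150 and 1415 FPKM in GFP and 1156, 869 and 1061 FPKM in OE (-0.27, 95% interval -0.64 to 0.09), and Obox1 had 35.2 to 39.6 and 30.9 to 35.6 FPKM (-0.13, 95% interval -0.45 to 0.18). None of these 4 was called. Of the 7 Obox3-ps rows tested here 2 were called lower, Obox3-ps2 and Obox3-ps5, and of 6 Obox4-ps rows none was called.

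Genes of the same lists are given for the other comparisons as counts of those called higher and lower. In ZH oocytes 1 of 10 oocyte transcription factors was higher (Figla) and 2 were lower (Nobox and Foxr1). Of 12 oocyte markers 0 were higher and 4 lower. All 5 tested 2-cell markers were higher, of 9 present, as were 9 of 16 tested activation genes with 1 lower. Of all 5792 genes tested there, 606 were called higher. Zscan4f, Usp17lc, Gm5039, Usp17lb and Eif1a had Het means under 1 FPKM and passed the filter only through KO, so these counts were favoured by the filter. Among the other homeobox genes in ZH oocytes, 1 of 11 was higher (Rhox10, also under 1 FPKM in Het) and 1 lower (Nobox). In CabZ oocytes 0 of 10 oocyte transcription factors, 0 of 12 oocyte markers, 3 of 14 activation genes, 2 of 4 2-cell markers and 1 of 9 other homeobox genes (Isl2) were higher, with none lower. In the injected embryos 0 of 5 oocyte transcription factors and 0 of 11 oocyte markers were called, and 2 of 32 activation genes, 1 of 10 2-cell markers and 1 of 10 other homeobox genes (Hesx1) were lower. Of the granulosa and cumulus markers, none was tested outside CabZ 2-cell embryos, where the 1 tested was not called.

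Over the 31 libraries, with the mean of each table subtracted, the log2 levels of the 4 maternal members were compared in pairs, of which Obox1 and Obox2 had the highest Pearson r (0.967) and Obox5 and Obox7 the lowest (0.493). Among 3297 genes the nearest to Obox1 was E330034G19Rik (r = 0.974), to Obox2 was Obox1 and then Gm36307 (r = 0.951), to Obox5 was Gm11448 (r = 0.899), and to Obox7 was Gm31925 (r = 0.964). These libraries share tables, treatments and, for Obox1 and Obox2, reads, so the correlations are descriptions only.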

How the data were processed

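RNA-seq values of the 7 Obox members were taken from 4 tables with 31 libraries, and peaks from 6 ATAC-seq libraries. Per the methods, the authors used TrimGalore for trimming and STAR (2.5.3a in the submitters' processing notes) for alignment to mm10, and obtained FPKM on RefSeq genes in Partek Flow. In the ZH and injection tables the deposited FPKM were per kilobase of whole gene span, introns included, with a constant added. The deposited values of both CabZ tables, taken as a score, appear from the values to have been divided by the span a further time, which no source used here states. FPKM were restored on that inference, by multiplying by the span and rescaling each library, and every CabZ FPKM rests on it. Read numbers were recovered from the steps between low values, of which 79.5 to 85.2% were whole, so no count model was used. The ATAC-seq lists hold the fold enrichment (a ratio) and the −log10 p and q-values that the authors obtained with MACS2 for each library, with duplicates and non-unique alignments excluded.

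The constant was subtracted and log2(FPKM + 1) was tested with limma 3.58.1 (R 4.3.3) within each table, over every gene that averaged 1 FPKM or more, with Benjamini-Hochberg adjustment. A call needed both an adjusted p below 0.05 and more than a 2-fold change. A fold change on this scale understates the change of low genes. A gene near 0 in 1 group could pass the filter through the other group alone, which favours calls in that direction. Members under 1 FPKM were compared by a two-sided exact permutation test. In simulated data with 200 genes changed 4- or 8-fold, 99.0% (ZH), 99.0% (CabZ GV), 92.0% (CabZ 2-cell) and 99.5% (injected) were recovered. False calls numbered 0, 3, 9 and 2. The changed genes were drawn from higher levels than Obox1 and Obox3 had in CabZ Het 2-cell embryos or Obox6 and Obox8 in GFP embryos. Recovery of such low genes, and of changes near 2-fold, was not simulated. Depth per library was 5819315 to 21869858 reads on genes, and intervals from reads cover counting error only. All 7 members and the 28 related rows were named, with the 3 genes nearest to each maternal member by Pearson r considered. The members and gene lists were chosen with earlier results of these data known. The alternatives were other scalings, filters, pseudocounts, lengths, blocks and omitted libraries. No library was left out, and RefSeq proteins were not used here.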

Additional observations from a re-analysis of the deposited data

Results flagged for a closer look

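Among 49 groups of 4 values examined, 3 held a library far from the other 3, where chance alone flags about 1 in 20 groups. Obox2 in CabZ KO 2-cell embryos was 237.7 FPKM in replicate 4, against 160.9 to 170.0 FPKM in the other libraries, and this library also had the least Obox3, Obox6 and Obox8 of its group. Obox2 in GFP embryos was 355.6 FPKM in replicate A, against 211.5 to 223.2 FPKM in the others, and this moved the ratio of Obox2 to Obox1 in that library to 0.631. Obox8 in ZH KO oocytes was 0.1776 FPKM (5 reads) in replicate 3, against 0.5529 to 0.6043 FPKM in the others.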

How the results depend on the processing

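The limits below concern calls near a threshold. In ZH oocytes the count of called members was 1 and fell to 0 (Obox5) in CPM, with CPM per exonic kilobase (an alternative chosen after seeing the data) and when scaled to the reads in the table, with log2 differences of -0.87 in each, and it ranged from 0 to 1 when single libraries were left out. Obox7 in ZH oocytes was 0.83 in each of these scalings, with an adjusted p of 0.0361 to 0.0410 by limma, and was not called. In CabZ oocytes the count was 0, became 1 (Obox7, 0.68) without the fold threshold, and was 0 in every fit that left out a library. In CabZ 2-cell embryos the count of 6 ranged from 5 to 7 without single libraries, and Obox5 was also called on the values as deposited (1.36), where 5 members were called of those tested. In injected embryos the count of 1 became 0 without the filter on low values, and ranged from 0 to 2 when single libraries were left out. The count of members under the filter that did not overlap was 2 and ranged from 2 to 3 without single libraries. The ATAC-seq count of 1 became 2 with a distance of 1000 bases, and ranged from 0 to 1 without single libraries. Differences near 0 changed sign: Obox5 in CabZ oocytes was 0.00098 on the values as deposited and -0.115 to 0.0672 without single libraries, and Obox2 in injected embryos was 0.0219 after median scaling and -0.18 to 0.10 without single libraries. No other member changed sign in any fit that tested it, and no called member did.

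The replicate numbers shared between groups did not pair the samples: the correlation of the deviations of same-numbered libraries ran from -0.41 to 0.40 in ZH, -0.18 to 0.14 in CabZ oocytes, -0.05 to 0.13 in CabZ 2-cell embryos and -0.16 to 0.15 in the injected embryos. With the replicate number as a block the member counts were 1 in ZH, 0 in CabZ oocytes and 6 in CabZ 2-cell embryos, and in the injected embryos 0, where Obox8 was -1.80 with an adjusted p of 0.124 by limma.

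Scaling moved the median of all genes by more than 0.1 in the ZH table (0.13 in CPM, 0.12 when scaled to the reads in the table, -0.15 with median scaling) and in CabZ 2-cell embryos (0.24 with median scaling, 0.50 as deposited). Of the genes called in CabZ 2-cell embryos 45.3% were higher, against 60.9% after median scaling and 75.1% as deposited. Depth limits Obox3, Obox6 and Obox8 in oocytes, where few reads lay on each, and shared reads limit Obox1 and Obox2. Fractional counts limit Obox3, Obox5 and Obox7.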
